A study of Mus musculus with 3 samples.

Results

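Lymphocyte egress and homing genes were followed across 6 lymphocyte classes of KP1 tumors: Klf2, S1pr1, S1pr4, Ccr7, Il7r and Itgae, which are 6 of the 33696 genes in the matrices. They were chosen by name for their roles in how lymphocytes enter and leave tissues, and all 6 were found. KP1 is a small-cell lung cancer line derived from an Rb and p53 mutant mouse tumor. In each group, female B6129SF1/J F1 mice, labelled wild-type, carried a subcutaneous KP1 tumor from 500000 injected cells, and live CD45+ cells were sorted from the tumors on day 19 and profiled with 10x 3′ single-cell RNA sequencing. The mono-IL-10 group (Supermono-10 in the labels) received a monomeric human IL-10. The Trikine group received IL-10/2-Trikine, in which that same mono-IL-10 is joined to an IL-2 variant that binds IL-2Rβ but does not signal by itself, and the combination group received the same Trikine plus an antibody against PD-1 (clone RMP1-14). Doses of 3 µg cytokine began at day 7 and were repeated on alternate days. The antibody, 200 µg a dose, was given at days 7, 11 and 15 and again at day 19. The protocol text can also be read as antibody in every group, while titles and treatment labels name it only for the combination. Each group was 1 library, the number of mice behind a library is not stated, and no untreated tumor was among the libraries. No test between groups was therefore possible. Every interval below is an exact 95% interval that covers counting error only, not differences between mice.

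Lymphocytes enter lymph nodes with CCR7, which binds chemokines shown on high endothelial venules, and leave tissues along gradients of the lipid sphingosine-1-phosphate (S1P), sensed by S1PR1. KLF2 is a transcription factor of resting lymphocytes that drives S1pr1. CD69, induced on activation, removes S1PR1 from the cell surface. The integrin αE chain, encoded by Itgae (CD103), pairs with β7 and binds E-cadherin on epithelia, and it marks tissue-resident and regulatory T cells. IL-7Rα, encoded by Il7r, carries the survival signal of IL-7 and is high on naive and memory T cells. In tumors, this set of genes separates cells that resemble recirculating lymphocytes from those that resemble activated or retained ones.

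Of the 6 genes, 3 were present in the RefSeq promoter table used here (build GRCm38.p6, which may differ from the build of the matrices). Their 250 bases before the transcription start are shown because Klf2 and Il7r were both highest in naive-like T cells in every library, while S1pr4 was not. Capitals mark matches to the motifs searched on both strands: the KLF and SP box CACCC, the MEF2 site (by name only), the FOXO core TGTTTAC, the STAT site TTCNNNGAA and the ETS core AGGAAG. A match is a run of letters and not a shown binding site.

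Klf2 promoter, chr8:72318812-72319061, plus strand: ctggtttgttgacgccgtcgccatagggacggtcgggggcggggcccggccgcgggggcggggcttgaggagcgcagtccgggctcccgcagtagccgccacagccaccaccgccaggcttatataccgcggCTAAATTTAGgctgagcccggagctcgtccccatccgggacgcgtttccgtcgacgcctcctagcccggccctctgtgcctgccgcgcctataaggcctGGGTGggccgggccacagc
Il7r promoter, chr15:9529877-9530126, minus strand: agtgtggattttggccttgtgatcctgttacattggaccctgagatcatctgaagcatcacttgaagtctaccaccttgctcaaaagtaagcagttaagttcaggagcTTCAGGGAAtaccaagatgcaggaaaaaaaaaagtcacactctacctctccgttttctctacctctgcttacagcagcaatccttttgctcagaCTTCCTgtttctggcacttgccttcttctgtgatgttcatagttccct
S1pr4 promoter, chr10:81500138-81500387, minus strand: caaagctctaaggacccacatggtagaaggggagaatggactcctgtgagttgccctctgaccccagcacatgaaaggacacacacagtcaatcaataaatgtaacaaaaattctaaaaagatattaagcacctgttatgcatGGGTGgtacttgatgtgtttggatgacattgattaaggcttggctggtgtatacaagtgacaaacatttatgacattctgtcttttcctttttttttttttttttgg

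The Klf2 window was 71.2% G and C, against 44% for Il7r, 38.8% for S1pr4 and a median of 52.4% over all 32851 windows of the table. Klf2 held the MEF2 letters 118 bases before the start and a CACCC box on the minus strand 19 bases before it. MEF2 letters were present in 3.20% of all windows and CACCC in 52.0%. Il7r held the STAT letters 142 bases and the ETS letters, read on the other strand, 48 bases before the start, which 7.02% and 29.5% of windows also held. S1pr4 held a CACCC box 107 bases before the start, and the FOXO letters, present in 3.17% of windows, were in none of these 3 windows.

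The libraries held between 158570946 and 197176873 UMIs, unique transcript molecules, and 71909 cells passed the filters in all. Cells had a median of 4273 to 5562 UMIs per library, and pairs of libraries shared 137 to 180 barcodes. The labels name the cells as T cells, but clusters with markers of NK cells, B cells, myeloid cells and KP1 tumor cells were also present. Classes were built from clusters made without the homing genes. T cell-like cells with a Cd8a or Cd8b1 UMI were taken as CD8 T cells, those with a Cd4 UMI as CD4 T cells and those with a Foxp3 UMI as Foxp3+ T cells. The rule for cells with more than a single such marker is given with the processing. The naive-like class was the T sub-cluster with all 7 naive markers, led by Igfbp4 and Dapl1, and it took precedence over the gates. Ncr1, an NK cell receptor gene, was at 556 to 780.1 CPM (the gene's UMIs scaled to the summed UMIs of the class) in NK cells and 0.876 to 1.86 CPM in CD8 T cells. Cd79a, a subunit of the B cell receptor, was at 526 to 770.4 CPM in B cells and 0.136 to 1.62 CPM in CD8 T cells.

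Class sizes differed strongly between libraries. Naive-like cells numbered 1305 with mono-IL-10, 27 with Trikine and 35 with the combination. The Fgf13-led sub-cluster, which also met the 3-marker rule for a naive-like name but had fewer of the markers and was kept in the gates, numbered 1151, 670 and 1098. B cells numbered 1591, 175 and 245. CD8 T cells numbered 3738, 4322 and 4307, CD4 T cells 1307, 2126 and 3439, Foxp3+ T cells 191, 648 and 666, and NK cells 727, 1033 and 1596. The levels of the naive-like class in the Trikine and combination libraries therefore rest on few cells and come with wide intervals. Of the B cells, 25.5%, 38.3% and 11.4% were called as doublets in the 3 libraries in that order, and 28.0%, 37.1% and 33.9% held a UMI of a Cd3 gene, the T cell receptor complex. Their part in the B cell levels was not tested beyond the values without doublets given below.

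**Figure D1:**
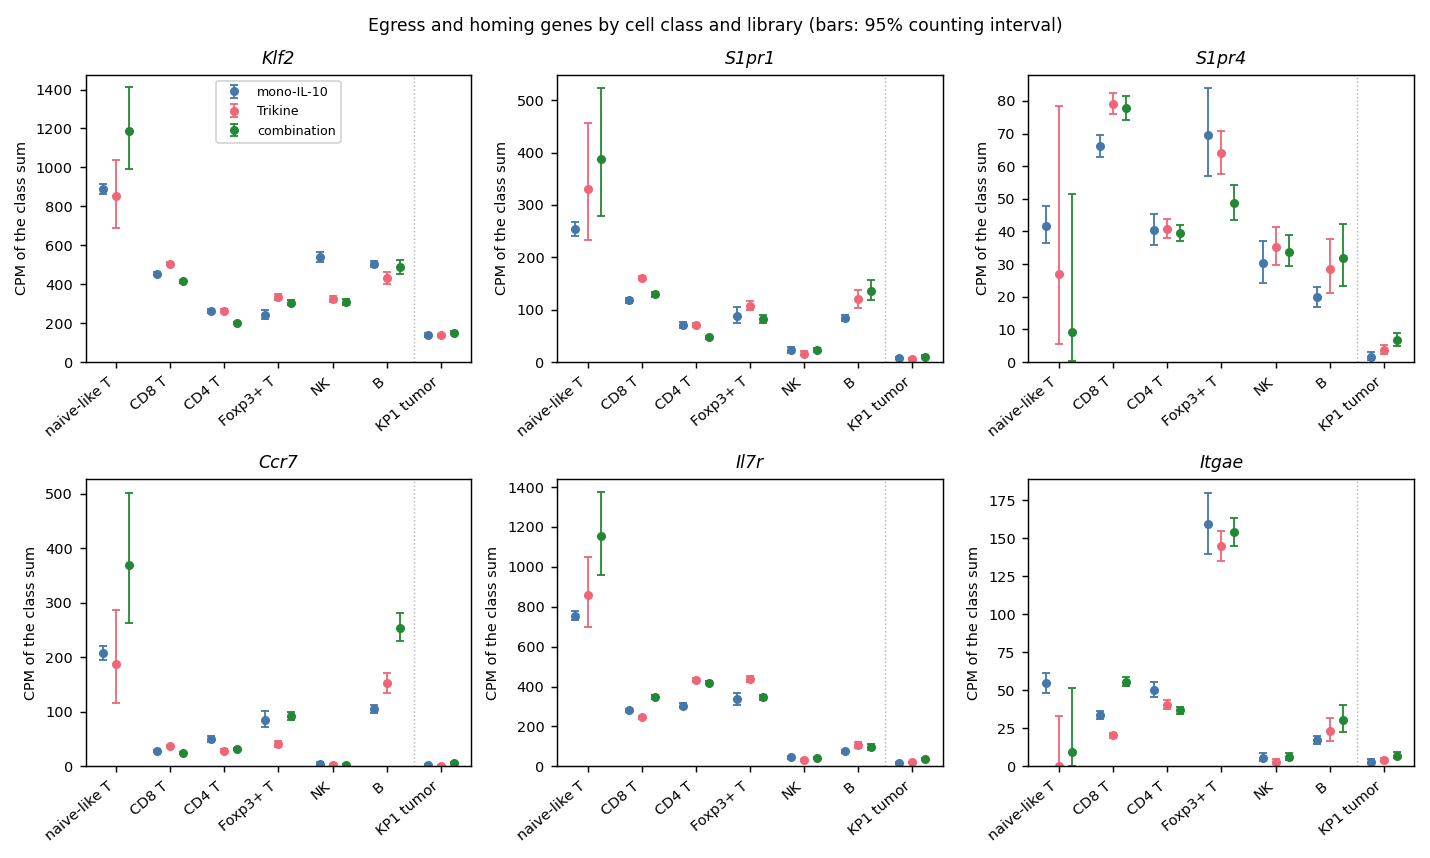
Level of each of the 6 genes (CPM, linear axis) in the 6 lymphocyte classes and, right of the dotted line, in KP1 tumor cell-like cells, with 1 point per library and exact 95% counting intervals as bars. Klf2, S1pr1 and Il7r are highest in naive-like T cells in every library, Ccr7 is highest in naive-like T cells and B cells, whose intervals overlap with Trikine and with the combination, and Itgae in Foxp3+ T cells, at 145 to 159 CPM.

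Klf2 was highest in naive-like T cells and lowest in CD4 or Foxp3+ T cells in every library. In naive-like cells it stood at 888 CPM with mono-IL-10, 851 with Trikine and 1189 with the combination. With a marker gate per cell in place of the sub-cluster, the Trikine over mono-IL-10 ratios of the naive-like class fell to 0.467 (0.439 to 0.495) for Klf2, 0.473 for S1pr1, 0.555 for Ccr7 and 0.5 for Il7r, so the differences between libraries in this class, here and below, depend on how it is defined and are given as values only. CD8 T cells held 453, 505 and 414 CPM. CD4 T cells held 263, 264 and 199 CPM. Thus the level in CD8 T cells lay above that of CD4 T cells in all 3 libraries, with intervals apart. In Foxp3+ T cells Klf2 was at 243, 335 and 304 CPM, and in B cells at 503, 432 and 486 CPM, or 517, 645 and 501 CPM without called doublets, where Trikine turned from the lowest to the highest library. The tumor cell-like cells, which should lack most lymphocyte genes, still held 137 to 151 CPM, and empty droplets 390.2 CPM or more, so Klf2 was widespread in free RNA. Of the tumor cell-like cells, 17.0%, 25.0% and 31.5% held a Cd3 UMI and 14.3%, 13.6% and 11.0% were called doublets. They are thus not a reference free of lymphocyte RNA, here or below. Neutrophils, at 686 to 861 CPM, were above most lymphocyte classes.

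Of the 6 classes as defined here, NK cells had a Klf2 ratio past 1.5-fold between libraries, and Foxp3+ T cells, at 1.38, passed it with a marker gate (1.55) and in cells with no Mki67 UMI (1.61). They held 541 CPM with mono-IL-10, 323 with Trikine and 307 with the combination. The ratio of Trikine over mono-IL-10 was 0.598 (0.556 to 0.644), or 1.67-fold lower, while combination and Trikine differed by less than counting error (ratio 0.950, 0.884 to 1.02). The ratio of Trikine over mono-IL-10 was within 1.5-fold at Leiden resolution 2, at 0.734 (0.702 to 0.769), and with the Klra6-led cluster counted in the NK class, at 0.680 (0.654 to 0.707). Empty droplets held Klf2 at 480.2, 390.2 and 409 CPM in the same libraries. Of all NK cells, 63.5%, 50.2% and 44% had a Klf2 UMI, at median depths of 3781, 3317 and 3206.5 UMIs. Once every cell was thinned to 1000 UMIs, which kept 722 of 727, 1010 of 1033 and 1545 of 1596 NK cells, the shares were 33.7%, 24.9% and 20.6%, against 9.78%, 10.2% and 10.0% of thinned tumor cell-like cells. The order of the libraries was thus the same in levels and in shares of cells. Genes induced by tissue dissociation moved alongside: their summed level in NK cells was 4682 CPM with mono-IL-10, 2348 with Trikine and 2435 with the combination, and 7 of the 8 were lower by over 1.5-fold with Trikine. The part of dissociation in the Klf2 values was not tested.

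S1pr1, the receptor that guides cells toward S1P, was highest in naive-like cells, with CD8 T cells or B cells next, and lowest in CD4 T cells and then NK cells in every library. Naive-like cells held 254 CPM with mono-IL-10, 331 with Trikine and 387 with the combination. CD8 T cells held 118, 161 and 129 CPM, so that the Trikine library was the highest, at 1.37 times mono-IL-10 (1.31 to 1.44), and the combination was at 0.803 times Trikine (0.766 to 0.841). The first ratio passed 1.5-fold with sub-clusters in place of gates (2.00) and at Leiden resolution 2 (1.78). It also passed with both naive-like sub-clusters (1.67) and in cells with no Mki67 UMI (1.62). The second ratio passed 1.5-fold with sub-clusters in place of gates, at 0.661. That setting takes whole T sub-clusters by their names and leaves out the unnamed ones and the Fgf13-led one. Its classes thus hold partly other cells than the gates. The thinned shares of CD8 T cells with a UMI kept the order of the levels, at 13.7%, 19.3% and 14.9% (36.3%, 53.2% and 35.8% before thinning). CD4 T cells held 70.1, 70.5 and 47.3 CPM. Here both cytokine-only libraries lay together and the combination lay below them, at 0.672 times Trikine (0.622 to 0.725). This ratio lay just within 1.5-fold. It passed when centred on all genes (0.657), with a marker gate (0.652), with sub-clusters (0.634) and with the homing genes among the variable genes (0.664). It also passed with both naive-like sub-clusters (0.651) and, at 0.542 (0.482 to 0.610), in cells with no Mki67 UMI. Empty droplets held S1pr1 at 50.3, 78.7 and 45.5 CPM, highest with Trikine and near the CD4 levels, and the part of free RNA was not tested. Foxp3+ T cells held 88.8, 107 and 81.8 CPM. Their Trikine over mono-IL-10 ratio, 1.21, became 1.67 with sub-clusters in place of gates and 2.31 (1.53 to 3.63) once cells with a Mki67 UMI were left out. B cells held 83.8, 119.9 and 136 CPM, or 106, 190.3 and 148 CPM without called doublets, which turned the order of Trikine and combination.

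In NK cells S1pr1 was low, at 22.9, 16.1 and 22.6 CPM. After thinning, 1.66%, 1.09% and 2.27% of NK cells had a UMI (6.6%, 4.36% and 6.39% before it), near the 1.30%, 0.628% and 1.81% of tumor cell-like cells, so these shares are read as background. S1pr5, the S1P receptor that NK cells use for egress, was instead at 32.1, 38.6 and 37.5 CPM in NK cells, with 7.49, 1.41 and 4.04 CPM in CD8 T cells. The ratio of S1pr5 in NK cells of Trikine over mono-IL-10 was 1.2 (0.929 to 1.56), an interval that holds 1.

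S1pr4, another S1P receptor of lymphocytes linked to migration and effector functions, had another order. It was highest in CD8 and Foxp3+ T cells and was not raised in naive-like cells. CD8 T cells held 66.2 CPM with mono-IL-10, 79.0 with Trikine and 77.8 with the combination. Foxp3+ T cells held 69.5, 64.0 and 48.6 CPM. CD4 T cells held 40.3, 40.8 and 39.5 CPM, and these values differed by less than counting error. NK cells, at 30.2, 35.2 and 33.8 CPM, and B cells, at 19.9, 28.5 and 31.8 CPM, were the lowest of the well-filled classes, above the 1.62 to 6.66 CPM of tumor cell-like cells. Empty droplets, however, held 24.0, 42.5 and 29.5 CPM, so the levels of NK and B cells, and of CD4 T cells with Trikine, were not clearly above free RNA. Without called doublets, B cells held 16.8, 33.1 and 28.4 CPM, which turned the order of Trikine and combination, with 16 UMIs behind the Trikine value. In naive-like cells the level was 41.8 CPM with mono-IL-10, while the other 2 libraries rest on 3 and 1 UMIs.

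Ccr7, the lymph node homing receptor, was highest in naive-like T cells and B cells, the cells that recirculate most. Naive-like cells held 207 CPM with mono-IL-10, 188 with Trikine and 369 with the combination. B cells held 105, 153 and 254 CPM, of which the combination was 1.66 times Trikine (1.42 to 1.95). Without the called doublets, B cells held 134, 374 and 282 CPM, so that the order of Trikine and combination turned around. Trikine then rested on 108 B cells, and no direction is drawn between these libraries for B cells.

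Within T cells Ccr7 differed between libraries in a class-dependent way. In Foxp3+ T cells it was 85.6 CPM with mono-IL-10, 40.6 with Trikine and 92.1 with the combination. Trikine alone was thus the low library, 2.11-fold below mono-IL-10 (1.69 to 2.62), and the combination was 2.27 times Trikine (1.95 to 2.64). In CD4 T cells it was 50.2, 28.4 and 31.5 CPM, 1.76-fold lower with Trikine than with mono-IL-10 (1.54 to 2.01). The CD4 ratio of levels, 0.567, was 0.669 with a marker gate, 0.678 at Leiden resolution 2, 0.687 in cells with no Mki67 UMI and 0.903 (0.724 to 1.13) with sub-clusters in place of gates, so that it no longer passed 1.5-fold in these 4 settings, and with sub-clusters the Foxp3+ T cell ratio, at 0.709, did not pass either. In CD4 T cells the combination was at 1.11 times Trikine (0.995 to 1.23). CD8 T cells showed the reverse order, with 27.5, 36.9 and 24.6 CPM, and Trikine was the high library at 1.34 times mono-IL-10 (1.22 to 1.48), which became 2.49 (1.98 to 3.14) with sub-clusters in place of gates, 1.68 at resolution 2 and 2.04 in cells with no Mki67 UMI. Empty droplets held Ccr7 at 45.5, 25.5 and 37.0 CPM, lowest with Trikine as in CD4 and Foxp3+ T cells, and the levels of CD4 and CD8 T cells were near or below these values in most libraries. The part of free RNA in the Ccr7 values was not tested. NK cells held 14, 7 and 18 UMIs in all, or 4.59, 1.71 and 3.12 CPM, which is near the 1.0 to 6.37 CPM of tumor cell-like cells and is read as background.

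Il7r was highest in naive-like T cells, intermediate in the other T cells, and low in B and NK cells. Naive-like cells held 755 CPM with mono-IL-10, 859.7 with Trikine and 1152 with the combination. CD8 T cells held 280.4, 245 and 347 CPM, and CD4 T cells 303, 432 and 419.9 CPM. In CD4 T cells the Trikine value was 1.43 times mono-IL-10 (1.36 to 1.5), while in gated CD8 T cells it was the lowest of the 3. The CD8 log2 ratio of Trikine over mono-IL-10, -0.20, turned to 0.50 with sub-clusters in place of gates and 0.11 at Leiden resolution 2. It was 0.23 in cells with no Mki67 UMI and 0.025 with both naive-like sub-clusters, so its direction depends on how the class is defined. Empty droplets held Il7r at 148, 205 and 192 CPM, lowest with mono-IL-10 as in CD4 T cells and above the NK and B cell levels, and the part of free RNA was not tested. Foxp3+ T cells, which are usually defined at the protein level by low IL-7Rα, held 337, 437 and 345 CPM, no less than CD8 T cells in mono-IL-10 and Trikine. NK cells held 44.6, 29.8 and 41.7 CPM, against 16.6 to 38.4 CPM in tumor cell-like cells. A Cd3 UMI was present in 24.9%, 26.9% and 33.7% of the NK class, and the Trikine over mono-IL-10 ratio of Il7r, 0.669, became 0.324 in NK cells with none and 0.417 without called doublets. B cells held 74.7, 105 and 97.4 CPM, of which 22.2, 53.8 and 50.8 CPM were left without called doublets.

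Itgae was highest in Foxp3+ T cells in all 3 libraries, at 159 CPM with mono-IL-10, 145 with Trikine and 154 with the combination. The level there was close across libraries, with a Trikine over mono-IL-10 ratio of 0.911 (0.789 to 1.05). In CD8 T cells it was 33.7, 20.5 and 55.6 CPM, which gave the largest ratio among the measured members between combination and Trikine, 2.71 (2.46 to 2.99), after a level 1.64-fold below mono-IL-10 (1.48 to 1.83) in the Trikine library. The latter ratio, 0.608, no longer passed 1.5-fold with a marker gate (0.677), with sub-clusters in place of gates (0.823) or in cells with no Mki67 UMI (0.843). Empty droplets held Itgae at 33.7, 36.1 and 45.0 CPM. After thinning, which kept 3679 of 3738, 4267 of 4322 and 4135 of 4307 CD8 T cells, 3.23%, 2.25% and 5.01% held a UMI (9.52%, 7.96% and 13.3% before it). CD4 T cells did not share this order, with 50.3, 40.4 and 36.7 CPM. Naive-like cells held 54.6 CPM with mono-IL-10, and 0 of 111663 UMIs with Trikine, where a floor of 3 counts stands at 26.9 CPM. With a marker gate the ratio was 0.742 (0.590 to 0.931). NK cells held only 17, 12 and 35 UMIs, or 5.57, 2.93 and 6.08 CPM, near the 3.04 to 7.08 CPM of tumor cell-like cells. Itgb7, the β7 partner chain, was at 245, 331 and 298 CPM in CD8 T cells and did not follow the order of Itgae.

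Both comparisons below use the Trikine library, so their values are not independent. A gene was counted as lower or higher when its ratio passed 1.5-fold, with at least 20 UMIs in the pair. Between Trikine and mono-IL-10, 8 of the 36 gene and class pairs were lower and 0 were higher. Centred on the median ratio of all genes in each class, 8 were lower and 6 higher, and the 6 were S1pr1, S1pr4, Ccr7, Il7r and Itgae in B cells and Il7r in CD4 T cells. In naive-like cells S1pr4, from 3 UMIs with Trikine (0.643, 0.132 to 1.90), and Itgae, from 0 UMIs, were counted as lower, 2 of 6, where 18.1% of all genes tested were lower. S1pr4 turned to 1.57 and 1.30 in 2 of the alternatives and Itgae stayed within 1.5-fold with a marker gate. In CD8 T cells it was Itgae alone, against 14.1% of all genes, in CD4 T cells Ccr7 alone, against 22.2%, and in Foxp3+ T cells Ccr7 alone, against 12.2%. NK cells had 3 of 6 lower, Klf2, Ccr7 and Itgae, against 10.3% of all genes, although the latter 2 lay at background. In B cells none of the 6 passed before centring, where 32.3% of all genes were lower and 7.76% higher, and relative to the median the 5 genes named above were higher by 0.71 to 0.81 on the log2 scale. Without called doublets and without centring, S1pr1 (1.80), S1pr4 (1.97), Ccr7 (2.80) and Il7r (2.42) were higher by over 1.5-fold. Itgae then had 0 UMIs in the 108 Trikine B cells and 33 with mono-IL-10. In the B class with doublets, the summed level of the 8 B cell markers was 5060.3, 2969 and 4578 CPM and that of the 8 NK cell markers, mostly Gzma, 776, 3363 and 1365 CPM. The 12 monocyte and macrophage markers summed to 2472, 977 and 1434 CPM, and the dissociation genes to 2542, 1732 and 1781 CPM. The part of all these in the B cell ratios was not tested. Single members in a class are a share near that of all genes, and nothing is read from those counts about the set as a whole.

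Between combination and Trikine, 34 of 36 pairs had enough UMIs, of which 1 was lower and 6 were higher. Ccr7 in CD8 T cells was the lower pair, at 0.665 (0.599 to 0.738), right at the limit, and 6.47% of all genes were lower there. It did not pass at resolution 2 (0.691), with the homing genes among the variable genes (0.673) or with both naive-like sub-clusters (0.706). In cells with no Mki67 UMI it was 0.377 (0.329 to 0.432). The higher pairs were Ccr7 in naive-like cells, where 17.0% of all genes were higher and where the ratio, 1.96, turned to 0.876 with a marker gate and 0.443 with both naive-like sub-clusters, Itgae in CD8 T cells (10.1% of all genes), Ccr7 in Foxp3+ T cells (4.72%), Ccr7 and Itgae in NK cells (6.12%) and Ccr7 in B cells (16.8%). The 2 NK cell pairs again rest on background counts. The median of all genes was shifted between Trikine and mono-IL-10, by -0.10 on the log2 scale in CD8 T cells, -0.15 in CD4 T cells and -0.27 in B cells. Relative to that shift, S1pr1 in CD8 T cells was higher by 0.56 and Il7r in CD4 T cells by 0.67.

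**Figure D2:**
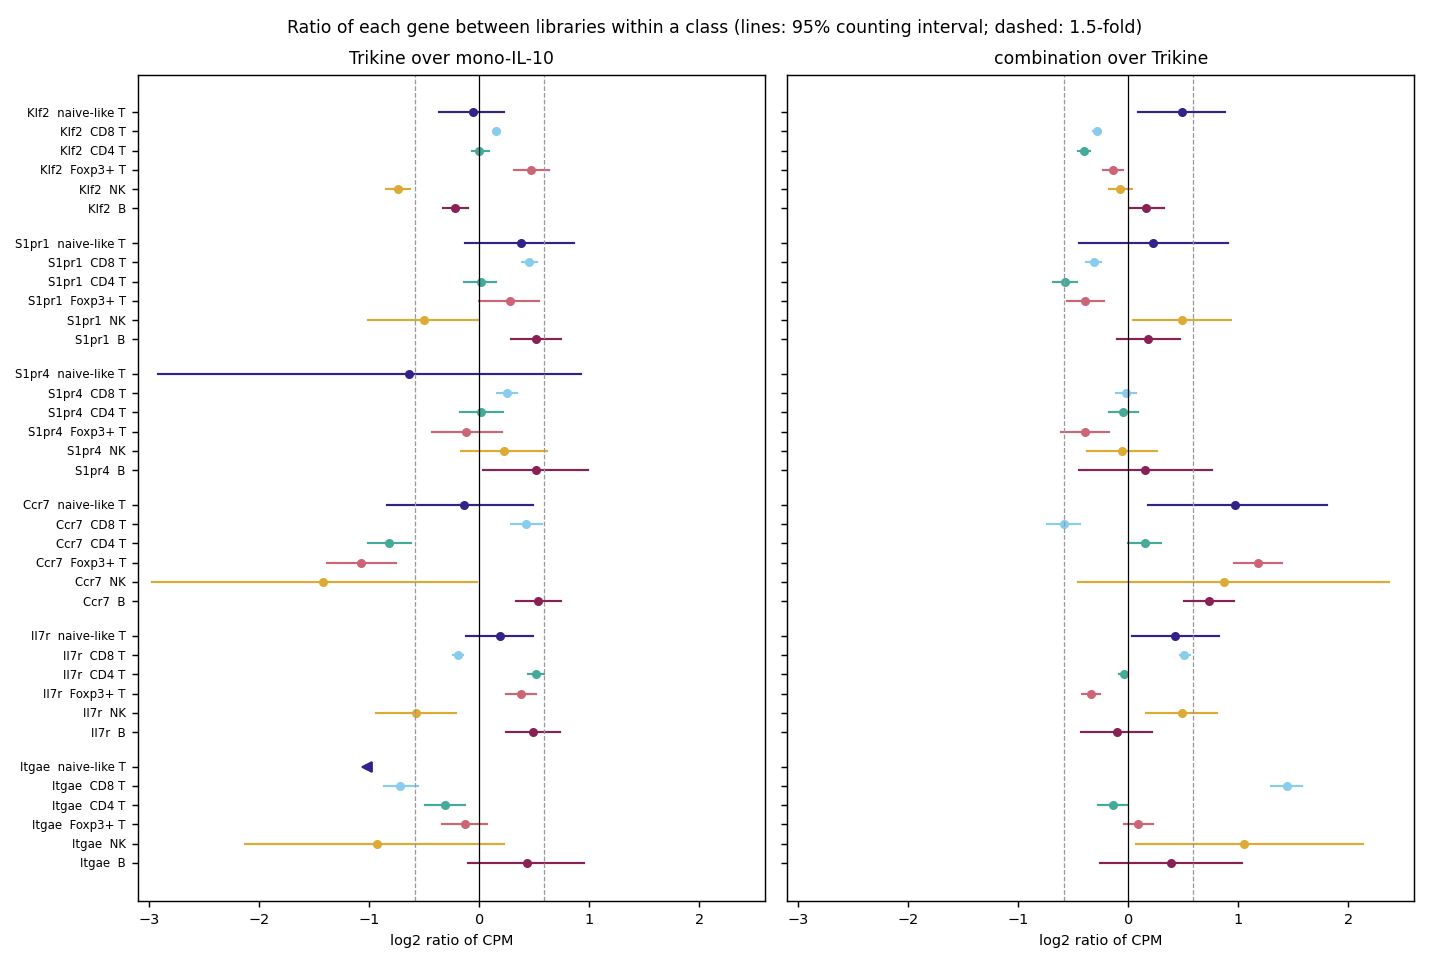
Log2 ratio of each gene between libraries in each class, Trikine over mono-IL-10 and combination over Trikine, with exact 95% counting intervals as lines, dashed lines at 1.5-fold and a triangle for a limit set by a count of 0. Itgae in CD8 T cells lies at -0.72 and then 1.44, and Ccr7 in Foxp3+ T cells at -1.08 and then 1.18.

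Over all T cells together, Ccr7 was 55.2 CPM with mono-IL-10, 34.9 with Trikine and 38.9 with the combination. These values include the T cells outside the gates, which held 9093162, 25167548 and 20629562 UMIs, and leave out the Klra6-led cluster. Naive-like cells gave 42.6% of the Ccr7 UMIs of T cells in the mono-IL-10 library, but 0.736% and 1.34% in the others. With the class shares of the mono-IL-10 library applied to all 3, the levels became 55.2, 52.6 and 71.0 CPM. At equal class shares Trikine was thus close to mono-IL-10, while the combination was above it instead of below, but these values rest on 21 and 40 Ccr7 UMIs of naive-like cells, whose order turned under the alternatives given above. Klf2 went from 441, 385 and 295 CPM to 441, 468 and 438 CPM, and S1pr1 from 119, 115 and 83.4 CPM to 119, 151 and 134 CPM. Itgae behaved otherwise: it was 49.0, 43.8 and 62.4 CPM over all T cells, and 49.0, 31.7 and 54.1 CPM at fixed shares. These fixed-share values carry the wide intervals of the few naive-like cells in the Trikine and combination libraries. With naive-like cells left out and no shares fixed, Ccr7 was 35.7, 34.7 and 38.4 CPM and Itgae 48.3, 43.9 and 62.5 CPM. Klf2 was then 384, 384 and 294 CPM and S1pr1 101, 114 and 83.0 CPM, so both stayed lowest with the combination among the other T cells.

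The gated classes were mixtures of sub-clusters that differed more widely in Klf2 and S1pr1 than the libraries did. Levels of sub-clusters below cover all their cells, also those outside the gates, unless gated cells are named. Among the sub-clusters that held most CD8 T cells, the Ly6c2-led sub-cluster, which also held Ccl5 and Klf3 among its leading genes, was a part high in Klf2 and S1pr1. Its Klf2 was 983 CPM with mono-IL-10, 623 with Trikine and 675 with the combination, and its S1pr1 239, 300.2 and 274 CPM. The Calcb-led sub-cluster, with Adgrg1 and Cd8a, was the low part, with Klf2 at 145, 205 and 171 CPM and S1pr1 at 26.8, 45.8 and 27.8 CPM. It was higher in Itgae, at 63.9, 74.1 and 103 CPM, than the Ly6c2-led cells, at 32.2, 29.0 and 43.7 CPM.

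In the CD8 gate the Calcb-led cells made up 25.9% with mono-IL-10, 9.53% with Trikine and 25.4% with the combination. The Ly6c2-led cells made up 33.7%, 43.2% and 37.7%, and an unnamed sub-cluster led by the histone gene H1f5, in which 88% to 93.4% of cells had a UMI of the proliferation gene Mki67, made up 11.2%, 31.0% and 14.2%. The Calcb-led share was thus smallest in the library where Itgae of CD8 T cells was lowest. The H1f5-led share was largest there, and its gated CD8 T cells were low in Itgae, at 14.0, 11.8 and 24.5 CPM. These are shares of cells, while the level of a class weights each cell by its UMIs. The part of the shares in the Itgae values was not tested. Within the Calcb-led cells alone, Itgae with Trikine was at 1.16 times mono-IL-10 (0.978 to 1.37), and the combination was at 1.39 times Trikine (1.18 to 1.64). In the Fgf13-led cells described below, the ratios were 0.665 (0.473 to 0.921) and 2.49 (1.79 to 3.51), the directions of the whole class. With gated CD8 T cells alone, Itgae with Trikine over mono-IL-10 was at 1.06 (0.859 to 1.30) in the Calcb-led, 0.801 (0.536 to 1.17) in the Fgf13-led and 0.728 (0.581 to 0.913) in the Ly6c2-led cells, and the combination over Trikine at 1.65, 2.62 and 1.88. In the gated H1f5-led cells these ratios were 0.843 (0.649 to 1.10) and 2.08. In the gated Xcl1-led cells, described below, they were 1.38 (0.823 to 2.37) and 2.82.

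The sub-clusters also differed in direction. In the Ly6c2-led cells Klf2 was 0.634 times as high with Trikine as with mono-IL-10 (0.610 to 0.659), and in the H1f5-led cells, at 285, 525 and 418 CPM, it was 1.84 times as high. In both S1pr1 was higher with Trikine, and in the H1f5-led cells it was 59.3, 122 and 77.4 CPM. Klf2 of the whole CD8 class, at 1.11 times mono-IL-10 (1.09 to 1.14), thus covered a sub-cluster with a lower and another with a higher level. In gated CD8 T cells alone these Klf2 ratios were 0.631 (0.605 to 0.658) in the 1866 and 1259 Ly6c2-led cells and 1.87 (1.77 to 1.97) in the 1339 and 420 H1f5-led cells of Trikine and mono-IL-10.

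A Fgf13-led sub-cluster, with Bach2 and 3 of the 7 naive markers, had the largest Ccr7 ratio of Trikine over mono-IL-10 among the sub-clusters compared. Its Ccr7 was 69.7 CPM with mono-IL-10, 226 with Trikine and 87.2 with the combination, or 3.24 times mono-IL-10 with Trikine (2.79 to 3.78), and the combination was at 0.386 times Trikine. Its share of the CD8 gate was 20.5%, 8.79% and 13.7%. Fewer such cells, with a higher Ccr7 level, were thus found with Trikine. Its S1pr1 was 277, 353 and 302 CPM and its Il7r 621, 719 and 876 CPM, which are in the range of the Igfbp4-led naive-like cells for S1pr1 and below them for Il7r.

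Of the CD4 gate, 24.3%, 33.8% and 21.9% fell in the Cd40lg-led sub-cluster, which was high in S1pr1 and Il7r. Its Klf2 was 598 CPM with mono-IL-10, 341 with Trikine and 352 with the combination, 0.571 times as high with Trikine as with mono-IL-10, while its Il7r was 695, 867 and 1085 CPM. In its gated CD4 T cells alone, Klf2 was at 0.611 (0.555 to 0.674) and Il7r at 1.5 (1.38 to 1.63) in the same comparison. The Ccl3-led sub-cluster, with Csf1 and Il21, was the low part, with Klf2 at 128, 191 and 170.0 CPM and S1pr1 at 12.3, 35.7 and 26.3 CPM. Its Il7r was 247, 467 and 405 CPM, so Il7r was higher with Trikine in both. The Ccl3-led cells made up 27.2%, 19.0% and 41.6% of the CD4 gate, and their share was highest in the combination library, in which S1pr1 of CD4 T cells was lowest. In the Cd40lg-led cells alone, S1pr1 was 183, 138 and 149 CPM. In gated CD4 T cells, S1pr1 with the combination over Trikine was at 1.04 (0.919 to 1.18) in the Cd40lg-led cells. It was at 0.706 (0.553 to 0.908) in the Ccl3-led cells and 0.509 (0.426 to 0.606) in the Xcl1-led cells described below. The Foxp3-led, Hspa1a-led and H1f5-led cells gave 0.701, 0.572 and 0.791, and the few Ly6c2-led cells 1.51 (0.843 to 2.84).

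In the Foxp3-led sub-cluster Ccr7 was 52.7, 37.4 and 85.1 CPM, again lowest with Trikine, at 0.709 times mono-IL-10, and the combination was at 2.28 times Trikine. Its Itgae was 164, 168 and 169.8 CPM. An unnamed sub-cluster led by Xcl1, with a median of 13654.5 UMIs per cell, was low in Klf2, at 121, 191 and 134 CPM, but held Ccr7 at 110.0, 59.0 and 72.6 CPM. Its gated CD4 T cells held 263 of the 373 Ccr7 UMIs of the CD4 class with mono-IL-10 and 375 of 571 with Trikine. Their Ccr7 was 119 and 39.5 CPM, a ratio of 0.332 (0.283 to 0.390), while its gated CD8 T cells were at 1.53 (1.29 to 1.82). The setting with sub-clusters in place of gates left this unnamed sub-cluster out of every class. It also left out the H1f5-led, Hspa1a-led and Arg1-led sub-clusters, which were unnamed too, and the Fgf13-led sub-cluster. Ratios in that setting therefore cover fewer kinds of T cells than the gates.

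**Figure D3:**
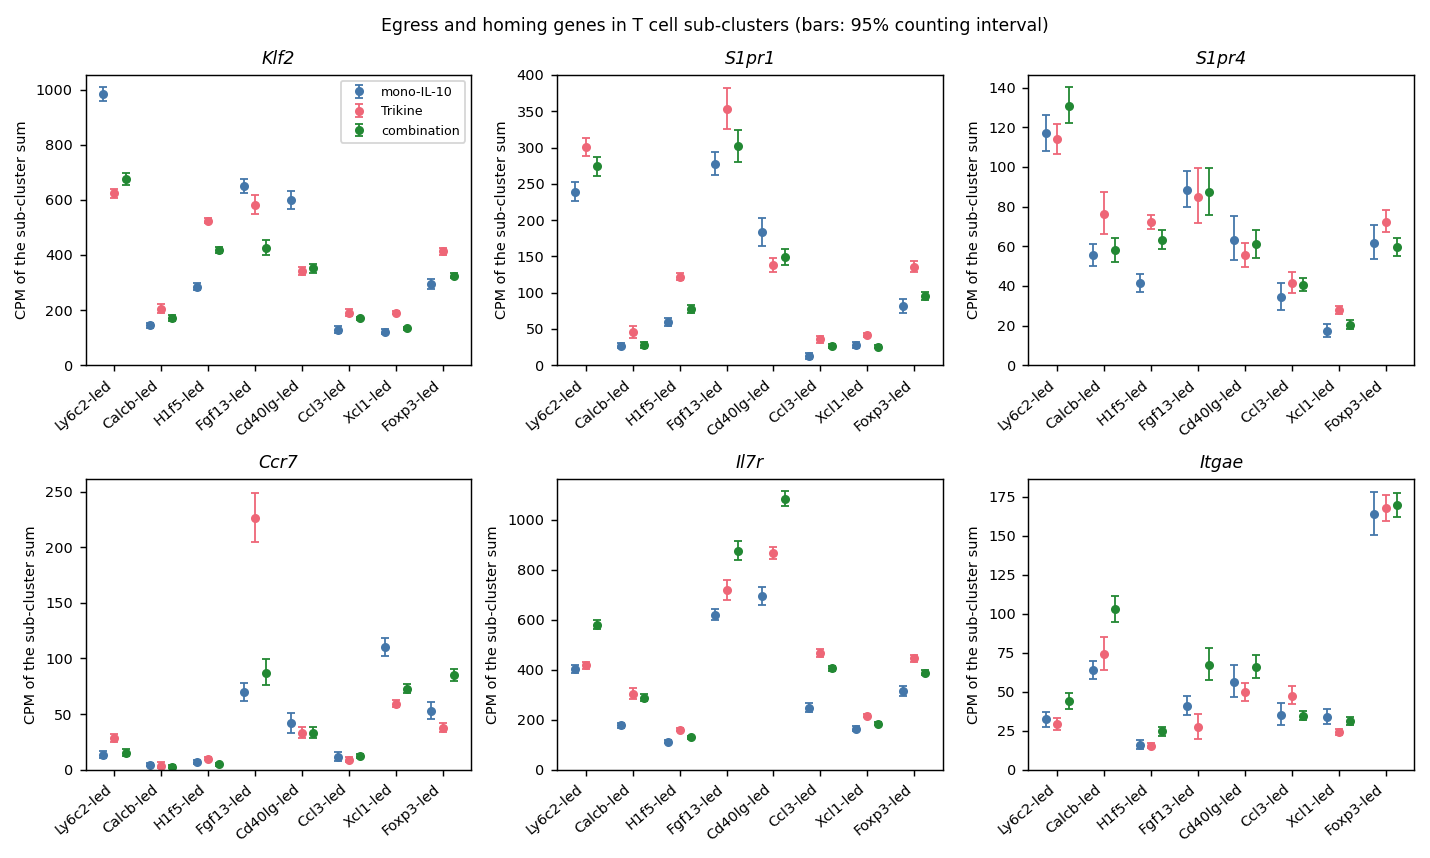
Levels of the genes in sub-clusters of the T cell-like cells (CPM), each named by a leading gene, with 1 point per library. Klf2 and S1pr1 are high in the Ly6c2-led and Fgf13-led cells and low in the Calcb-led and Ccl3-led cells, where S1pr1 is at 12.3 to 45.8 CPM.

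Cells with a Mki67 UMI, a sign of cycling, were unevenly spread. They made up 27.0%, 43.9% and 24.9% of CD8 T cells, 25.8%, 50.1% and 38.1% of CD4 T cells and 37.2%, 46.6% and 46.2% of Foxp3+ T cells. Thinned to 1000 UMIs per cell, the CD8 shares were 12.5%, 22.8% and 11.5%. Il7r was much lower in these cells, in CD8 T cells at 160.3, 161 and 159 CPM in the 3 libraries, against 388, 455 and 531 CPM in cells with no Mki67 UMI. The level in CD8 T cells with a Mki67 UMI thus differed by less than counting error between libraries. Among the others it was 1.17 times as high with Trikine as with mono-IL-10 (1.12 to 1.22), the opposite direction to the whole CD8 class, at 0.873, in which more cells had a Mki67 UMI with Trikine.

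Among CD4 T cells with no Mki67 UMI, Il7r was 387 CPM with mono-IL-10, 1011 with Trikine and 688 with the combination. The Trikine over mono-IL-10 ratio there was 2.61 (2.47 to 2.77), where the whole class gave 1.43. Foxp3+ T cells gave 537, 893 and 609 CPM without Mki67 and 199, 275 and 238 CPM with it. Ccr7 of CD8 T cells with no Mki67 UMI was 36.8, 75.2 and 28.4 CPM, a ratio of 2.04 (1.81 to 2.31) for Trikine over mono-IL-10, and S1pr1 162, 263 and 180.4 CPM. Itgae of CD4 T cells was 59.3, 96.3 and 58.8 CPM in these cells, above mono-IL-10 in the Trikine library, where the whole class was below it. Itgae of CD8 T cells with no Mki67 UMI was 41.7, 35.2 and 74.6 CPM. Presence of a Mki67 UMI depends on depth, and cells without one had fewer UMIs on average.

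**Figure D4:**
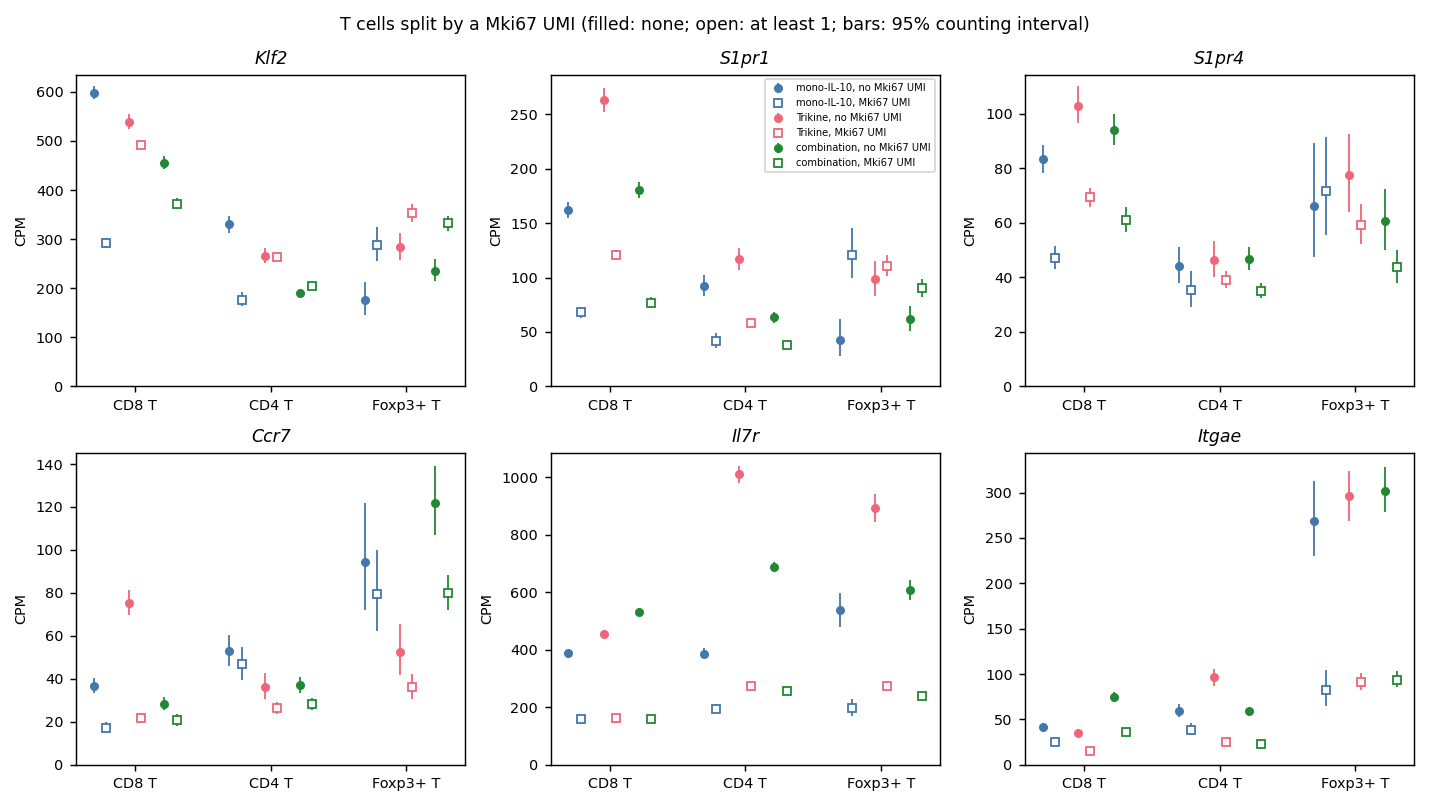
Levels of the genes in T cell classes, split by whether a cell had a Mki67 UMI (open squares) or none (filled points), with 1 symbol per library (CPM, with exact 95% counting intervals). Il7r is lower in cells with a Mki67 UMI in CD8, CD4 and Foxp3+ T cells of every library, with 159 to 161 CPM in CD8 T cells.

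Co-detection within cells thinned to 1000 UMIs showed S1pr1 more often in CD8 and CD4 T cells that had Klf2. Of CD8 T cells with a Klf2 UMI, 19.5% (17.2 to 21.8) had an S1pr1 UMI with mono-IL-10, against 11.0% (9.75 to 12.2) of those without. With Trikine the shares were 24.3% and 16.4%, and with the combination 22.3% and 11.9%. CD4 T cells gave a wider gap, 20% against 4.80%, 16.9% against 6.85% and 14.7% against 4.88%. In all 6 cases the intervals were apart. Cells of 1 library are not replicates, and these are descriptions of each library.

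Ccr7 and Il7r were found together more often in CD8 T cells, with Il7r in 45.2%, 44.4% and 52.2% of Ccr7-positive cells against 20.8%, 20.9% and 24.9% of the others. In CD4 T cells the shares were 34.1% against 22.5%, 27.8% (16.5 to 41.6) against 39.5% (37.4 to 41.7) and 45.6% against 33.1%. The intervals overlapped with mono-IL-10 and with Trikine, where 15 of 54 Ccr7-positive cells held Il7r. Foxp3+ T cells of the combination had 19.0% (8.60 to 34.1) against 34.0% (30.2 to 37.9), which overlap as well. Itgae and S1pr1 leaned the other way. Of CD8 T cells with an Itgae UMI, 10.9%, 14.6% and 9.18% had S1pr1, against 13.8%, 19.4% and 15.2% of those without, and the intervals were apart only for the combination. The presence of a Cd69 UMI made little difference to S1pr1 in CD8 T cells, at 14.2% against 13.5% with mono-IL-10. In CD4 T cells S1pr1 was found more often with Cd69, in 11.0% against 6.86% with mono-IL-10, 10.0% against 8.50% with Trikine and 10.1% (7.62 to 13.0) against 5.65% (4.83 to 6.56) with the combination, and the intervals were apart only for the last. CD69 acts on the S1PR1 protein, which was not measured.

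Over the 18 class-by-library profiles and 5430 genes, the genes most like each member by Pearson correlation of log2(CPM + 10) were as follows. For Klf2 they were Prxl2c (0.92), Scml4 (0.91) and Tnfrsf26 (0.89), and for S1pr1 Slamf6 (0.93), Fam241a (0.89) and Twf2 (0.87). S1pr4 was most like Acsbg1 (0.90), Fundc2 (0.87) and Mrpl41 (0.85). Ccr7 was most like Retreg1 (0.93), Slamf6 (0.91) and Trp53inp1 (0.88). Il7r was most like Gm11707 (0.96), Gm12840 (0.94) and Slco3a1 (0.94), and Itgae like Ikzf4 (0.94), Neb (0.94) and Rab11fip1 (0.90). Slamf6, a surface receptor of stem-like and naive lymphocytes, was shared by S1pr1 and Ccr7, which correlated with each other at 0.84. S1pr1 correlated with Il7r at 0.77 and with Klf2 at 0.69, whereas Itgae and Klf2 stood at -0.45. Groups of 6 profiles share a library, and groups of 3 share a class, so these are descriptions.

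The partners of the 6 genes did not share a direction. Cd69 was 335 CPM with mono-IL-10, 169 with Trikine and 219.8 with the combination in CD8 T cells, a Trikine over mono-IL-10 ratio of 0.506 (0.489 to 0.524), and 295, 163 and 149 CPM in CD4 T cells. NK cells held 539.9, 296 and 459 CPM. S1pr1 of CD8 T cells was thus higher in the library where Cd69 was lower, but CD4 T cells had the lowest S1pr1 in the library with the lowest Cd69. Foxo1, the transcription factor upstream of Klf2 and Il7r, was 165, 123 and 169.6 CPM in CD8 T cells and 201, 131 and 182 CPM in CD4 T cells. Il2rg, the γ chain that pairs with IL-7Rα, was 426, 308 and 414 CPM in CD4 T cells, lower in the library where Il7r was highest.

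Ranges of ratios in the lists below cover genes at 20 CPM or more in the higher library, while counts cover every measured gene. For the other homing genes, CD4 T cells had larger shares lower with Trikine than with mono-IL-10 than CD8 T cells or NK cells did. Of 10 genes of the KLF2 and FOXO1 quiescence list, 8 were lower by over 1.5-fold and 0 higher, where 22.2% of all genes of that class were lower, with a median log2 ratio of -0.86 beside -0.15 for all genes, and with ratios from 0.852 for Btg2 to 0.301 for Bach2. Of the 15 tissue entry and retention genes measured, 9 were lower, with a median of -0.71, and the highest ratio was 1.36, for Runx3. The S1P list had 4 of 8 lower, from Gnai2 (0.961) to Sgpl1 (0.501), the enzyme that degrades S1P, and lymph node entry 5 of 10, from Gpr183 (1.23) to Itgal (0.489). The dissociation and stress list moved in the same direction, with 5 of 8 lower and a median of -0.71, and its part in these lists was not tested. In the same CD4 T cells the summed level of the 8 NK cell markers was 2287, 4416 and 5275 CPM and that of the 8 T cell markers 7814, 5612 and 7609.8 CPM, and in Foxp3+ T cells the NK cell markers were at 471, 2847 and 2065 CPM. Most of the NK cell sum in CD4 T cells was Gzma, a granzyme that cytotoxic T cells also make, at 1882, 4098 and 4633 CPM, while Ncr1 was at 1.48, 3.14 and 2.70 CPM. In CD8 T cells the NK cell sum was 5324, 11759.6 and 9973 CPM, of which Gzma was 4633, 11120.1 and 9356 CPM. The part of other cells was not tested. Of the UMIs of CD4 T cells, cells with a Mki67 UMI gave 3253838 of 7436231 with mono-IL-10 and 15782026 of 20080388 with Trikine. The part of cycling cells in these lists was not tested either. Klf2 itself, at 1.0 (0.953 to 1.06), and S1pr1, at 1.01 (0.909 to 1.11), were not among the lower genes of CD4 T cells.

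In CD8 T cells, where 14.1% of all genes were lower, 4 of 9 genes of the S1P list were lower, from Gnai2 (1.03) to Cd69 (0.506), and 3 of 8 of the dissociation list, with a median of -0.52. Fewer passed than in CD4 T cells in the other lists, with 2 of 10 of the quiescence list lower, from Bcl2 (1.09) to Btg1 (0.581), an antiproliferative gene, 5 of 15 of the tissue list, with Itgb7 (1.35) the highest, and 3 lower and 1 higher of the 10 lymph node entry genes. The higher one was Fut7, at 1.94 against 1.14 CPM, and the list ran from Cxcr4 (1.29) to Itgal (0.574). Between combination and Trikine, where 10.1% of all genes were higher and 6.47% lower in CD8 T cells, the CD8 lists had 1 of 10 quiescence genes higher by over 1.5-fold, Btg1 at 1.83 (1.80 to 1.86), and in the tissue list Cxcr6, a receptor of resident and tumor-infiltrating T cells, at 1.55 (1.49 to 1.62), beside the higher Itgae. Of the 15 tissue genes, 2 were higher, Cxcr6 and the barely detected Ccr8, and 2 were lower, Ccr2 at 0.661 (0.625 to 0.7) and Ccr9 at 2.00 against 3.28 CPM, with a median log2 ratio of 0.14 beside 0.043 for all genes. Of the S1P list 3 of 9 were higher, with a median of 0.57, and of the dissociation list 2 of 8, with a median of 0.46. In CD4 T cells Cxcr6 was at 2.10 (2.02 to 2.19), where Itgae was at 0.907 (0.826 to 0.996). In NK cells the S1P list ran from Cd69 at 1.55 (1.45 to 1.66) to Rgs1 at 0.919 (0.883 to 0.956).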

How the data were processed

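Single-cell libraries of live CD45+ cells from KP1 tumors were analysed from the unfiltered matrices, 1 per group. The deposited matrices hold raw UMI counts, and the authors produced them with Cell Ranger. The matrix headers give version 8.0.0 and the processing notes name mm10, while the study's methods name a later version and GRCm39 with intronic reads included, so the build is uncertain and no coordinate was taken from the matrices.

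A barcode counted as a cell if 200 or more genes were detected and mitochondrial UMIs made up no more than 20%, as in the study's methods. More cells were kept here than those methods state. Doublets were called with Scrublet (as in Scanpy 1.11.5) and kept in the main values. Cells were clustered with Scanpy 1.11.5 and leidenalg 0.10.2 (2000 variable genes, 30 components, resolution 1, then 0.8 within T cells), with the homing genes left out. Clusters were named from marker lists (at least 3 markers). A name was withheld where more of the leading genes were markers of another class. It was also withheld for shallow clusters with none of the name's markers among the leading genes. Names were rebuilt here and may differ from the study's. CD8 T cells had a Cd8a or Cd8b1 UMI and no Cd4 or Foxp3 UMI. CD4 T cells had a Cd4 UMI and none of Cd8a, Cd8b1 or Foxp3. Foxp3+ T cells had a Foxp3 UMI and none of Cd8a or Cd8b1, with or without Cd4. T cells outside these gates and the naive-like class were left out. Counts were summed per class and library and given as CPM with exact Poisson intervals. Ratios have exact conditional binomial intervals and shares exact binomial intervals (SciPy 1.17.1). Scripts were tested on simulated counts.

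The 6 genes were named in every class. Of the other lists, the genes with the highest and lowest ratio per comparison in CD8 T, CD4 T or NK cells were eligible, with partners of the members and the 3 genes most like each member. Fut7, Ccr8, Ccr9 and the leading genes of clusters fall outside that rule and were named after their values were seen. Some genes the rule names are not reported here. The members and lists were chosen with earlier results of these data known. Alternatives covered scaling, filters, doublets, class definitions, cycling cells and thresholds.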

Additional observations from a re-analysis of the deposited data

Results flagged for a closer look

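Some genes differed between libraries in opposite directions in different classes. These differences between classes were not tested, since each group was 1 library. Klf2 with Trikine over mono-IL-10 was at 1.38 (1.24 to 1.55) in Foxp3+ T cells and 0.598 (0.556 to 0.644) in NK cells. Ccr7 in the same comparison was at 1.45 (1.26 to 1.67) in B cells and 0.373 (0.127 to 0.987) in NK cells, the latter from 7 against 14 UMIs at background. The B cell ratio became 2.80 (2.35 to 3.32) without called doublets and 2.30 (1.88 to 2.81) with the marker gate. Ccr7 with the combination over Trikine was at 2.27 (1.95 to 2.64) in Foxp3+ T cells and 0.665 (0.599 to 0.738) in CD8 T cells. Itgae in that comparison was at 2.71 (2.46 to 2.99) in CD8 T cells and 0.907 (0.826 to 0.996) in CD4 T cells.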

How the results depend on the processing

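Of 758 ratios recomputed under the alternatives, 592 stayed within the counting interval of the reported ratio, 156 left it in the same or the opposite direction, and in 10 a ratio past 1.5-fold turned direction. In all 103 crossed the 1.5-fold limit or were among those 10. Over every ratio, also those within 1.5-fold, 68 changed sign. The count of 8 lower pairs with Trikine over mono-IL-10 became 5 with sub-clusters in place of gates, 4 at Leiden resolution 2, 4 in cells with no Mki67 UMI and 3 at a fold of 2, and stayed between 6 and 9 in the other settings. The count of 0 higher pairs became 6 when centred on all genes, 4 without doublets, 3 with a marker gate, 4 with sub-clusters, 5 at resolution 2, 2 with the homing genes among the variable genes and 9 with no Mki67 UMI. With both naive-like sub-clusters it became 2, and with the Klra6-led cluster in the NK class 1, and these 2 alternatives were chosen after seeing the data. For the combination over Trikine, the 1 lower pair became 2 when centred, with the marker gate, at resolution 2 and in each of those 2 added alternatives, 3 with sub-clusters, 4 with no Mki67 UMI and 0 at a fold of 2, where the 6 higher pairs became 3. Those 6 became 4 at resolution 2, with at least 50 UMIs in the pair and with the Klra6-led cluster. They became 5 with the marker gate and with no Mki67 UMI, and 7 without doublets, and stayed at 6 in the other settings. The ratios past 1.5-fold that turned were, as log2 values, S1pr4 in naive-like cells (Trikine over mono-IL-10: 0.65 with the homing genes kept and 0.37 with both naive-like sub-clusters), Itgae in NK cells (1.11 and then, for the combination over Trikine, -0.60 at resolution 2, and 0.35 and -0.30 with the Klra6-led cluster), Ccr7 in naive-like cells (combination over Trikine: -0.19 with the marker gate, -0.036 with the homing genes kept and -1.17 with both sub-clusters) and Ccr7 in B cells (-0.41 without doublets). Another 11 had been within 1.5-fold and passed it on the opposite side. With Trikine over mono-IL-10 these were S1pr1 in NK cells (from -0.51 to 1.24 at resolution 2 and 0.68 with the Klra6-led cluster), Ccr7 in naive-like cells (from -0.14 to 0.93 at resolution 2, 1.35 with the homing genes kept and 0.62 with both sub-clusters), S1pr1 and Il7r in naive-like cells (from 0.38 to -1.08 and from 0.19 to -1.0 with the marker gate), Il7r in B cells (from 0.49 to -2.08 with the marker gate) and Itgae in CD4 T cells (from -0.31 to 0.70 with no Mki67 UMI). For the combination over Trikine it was S1pr1 in NK cells (from 0.48 to -1.10 at resolution 2 and -0.86 with the Klra6-led cluster). The cause was not tested. No paired analysis was possible because each group was 1 library. No replicate could be left out for the same reason.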

Other observations

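A cluster led by Klra6, with Klra5, Gzmc and the γδ T cell receptor gene Trdc among its leading genes, was left unnamed and out of the classes above. It passed 6 markers of a class, and the name was withheld because of its leading genes. At Leiden resolution 2, clusters led by Gzmc and by Klra6 were named NK cells, while that led by Trdc stayed unnamed. The Klra6-led cluster held 632 cells with mono-IL-10, 4028 with Trikine and 2649 with the combination, of which 76.9%, 85.7% and 69.4% had a UMI of a Cd3 gene. In the same order, 22.6%, 49.3% and 24.5% had a Mki67 UMI and 20.1%, 14.1% and 2.34% were called doublets. The part of cycling cells and doublets in the values below was not tested. Il7r was 421 CPM with mono-IL-10, 201 with Trikine and 205 with the combination, 2.09-fold lower with Trikine than with mono-IL-10 (1.98 to 2.21). Ccr7 was 24.0, 10.3 and 12.9 CPM, 2.32-fold lower (1.83 to 2.93). S1pr1 was 89.2, 105 and 64.4 CPM, well above the 16.1 to 22.9 CPM of the NK class, and Klf2 419.5, 321 and 234 CPM.

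A small unnamed T sub-cluster of 159 cells, led by Arg1 and Il5, genes of type 2 lymphocytes, held Il7r at 1448, 1675 and 1235 CPM in the 3 libraries.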
